A study of Mus musculus with 19 samples.

Results

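Zinc transporters and metallothioneins were followed across 2 lobes of the mouse prostate and 2 diets. The set holds 10 genes: 6 importers of the ZIP family (Slc39a1, Slc39a6, Slc39a7, Slc39a8, Slc39a10 and Slc39a14), 2 exporters of the ZnT family (Slc30a1 and Slc30a4) and the metallothioneins Mt1 and Mt2. They were chosen by name as a family, and Slc39a6 was also selected on its measured level, which was lower on the diet in the ventral lobe of these arrays. Each gene stands for the probe set, of those annotated to that gene only, with the highest mean over the 19 arrays. The 10 genes had 20 such probe sets among 45101 on the array, and 17 of the 20 passed the filter on dim probe sets described below. All 10 genes were among the 11728 genes tested, and each was above the array median on all 19 arrays.

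The arrays came from male reproductive tissue of C57BL/6J mice, an inbred strain, that began their diets at 8 weeks of age and ate freely for 12 weeks. The groups were the dorsolateral prostate (DLP) of mice on a high fat diet (HFD, 4 arrays), the DLP of mice on a control diet (5 arrays), the ventral prostate (VP) of HFD mice (5 arrays) and the VP of control mice (5 arrays). The labels describe 5 mice per diet and do not tie an array of a lobe to a mouse, and no genetic change is named in them. What was measured is RNA of whole lobes, so fewer cells of a type and less RNA per cell cannot be told apart. Levels below are log2(value + 1) of the deposited values, a scale on which the median of each array was 1.85, and differences are on the same log2 scale. Every array held one and the same set of values, so that a level tells only where a probe set ranks on its array, and levels of different probe sets are not set against each other.

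Zinc crosses membranes through transporters of 2 families that work in opposite directions. ZIP proteins bring zinc into the cytosol from outside the cell or from organelles, and ZnT proteins move it out of the cytosol, into vesicles or out of the cell. Metallothioneins are small cysteine-rich proteins that bind zinc and copper, and their genes are induced by zinc through the metal-responsive factor MTF1, by glucocorticoids and in the acute-phase response. The prostate is known for the high zinc content of its epithelium and secretion.

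Promoters of the metallothionein genes carry metal response elements, to which MTF1 binds, and Slc30a1 is a further known target of MTF1. The 3 promoters are shown because their genes went opposite ways between the lobes. Each runs 5′ to 3′ on the strand of the gene, from 250 bases before to 50 bases after the start site in RefSeq (build GRCm38.p6), and capitals mark matches to the core of the element, TGCACNC or TGCGCNC, on either strand. The Mt1 window is chr8:94178839-94179138, the Mt2 window chr8:94172368-94172667 and the Slc30a1 window chr1:191906531-191906830, all on the plus strand.
Mt1: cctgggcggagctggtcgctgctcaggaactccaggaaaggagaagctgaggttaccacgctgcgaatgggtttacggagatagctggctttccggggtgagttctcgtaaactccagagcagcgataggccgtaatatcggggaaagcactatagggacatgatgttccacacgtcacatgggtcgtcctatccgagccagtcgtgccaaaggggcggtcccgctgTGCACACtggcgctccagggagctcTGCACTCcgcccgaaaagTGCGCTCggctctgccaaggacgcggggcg
Mt2: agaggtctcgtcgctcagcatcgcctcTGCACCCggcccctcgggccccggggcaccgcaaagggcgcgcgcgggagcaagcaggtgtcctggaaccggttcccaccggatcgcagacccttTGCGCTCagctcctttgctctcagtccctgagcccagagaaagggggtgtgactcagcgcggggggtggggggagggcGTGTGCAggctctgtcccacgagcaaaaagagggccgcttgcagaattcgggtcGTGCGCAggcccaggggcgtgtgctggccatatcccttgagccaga
Slc30a1: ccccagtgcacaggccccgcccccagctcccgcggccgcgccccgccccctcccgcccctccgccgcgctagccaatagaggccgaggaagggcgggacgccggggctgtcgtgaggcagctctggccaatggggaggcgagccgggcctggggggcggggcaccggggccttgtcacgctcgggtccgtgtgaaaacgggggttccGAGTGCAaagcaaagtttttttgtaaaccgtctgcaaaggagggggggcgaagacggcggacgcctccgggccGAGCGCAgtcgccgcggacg

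The Mt1 window held 3 matches, the Mt2 window 4 and the Slc30a1 window 2, with overlapping matches counted separately. Of 32851 promoter windows of 300 bases, 25.7% held at least 1 match, 7.11% at least 2, 1.97% at least 3 and 0.517% at least 4. RefSeq promoters were matched for 8 of the 10 genes. The window of Slc30a4 held 3 matches, those of Slc39a1 and Slc39a7 none, both of Slc39a10 none, and of the 2 windows of Slc39a8 one held 1 and the other none. Slc39a6 and Slc39a14 are named only. A match is a run of letters and not evidence that a factor binds there.

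Lobe identity was clear in known secretory genes. Tgm4, the prostate transglutaminase, was 12.3 to 12.7 on DLP arrays and 1.36 to 2.37 on VP arrays. All 6 luminal epithelial markers measured, of 8 listed, were above the array median on at least 1 array of every group, with 1 called higher and 4 lower in DLP in both diets. The lobes also differed in other cells' markers. Called higher in DLP were 2 of 3 basal, 3 of 5 smooth muscle and 3 of 5 nerve markers in HFD mice, and 3 of 3, 3 of 5 and 5 of 5 in control mice. Called lower were 1 of 4 macrophage markers in HFD mice and 2 of 4 in control mice. Of the sparser lists, the 1 adipocyte marker tested of 5 was called lower and 1 of 2 skeletal muscle markers higher in both diets, and 1 of 2 lymphocyte markers was called higher in control mice. No fibroblast, endothelial or seminal vesicle marker was called in either diet. Of all genes tested, 52.9% were called in HFD mice and 55% in control mice, so a call as such does not single out a cell type. Summed on the linear scale in the deposited arbitrary units, luminal markers ran from 7539 to 8929 in HFD DLP, 7428 to 8734 in control DLP, 3118 to 6860 in HFD VP and 2951 to 6375 in control VP. The DLP sums rest largely on 1 marker, Pbsn, whose level was 12.4 to 12.7 on DLP arrays and 7.40 to 11.98 on VP arrays. The mean log2 level of the luminal markers overlapped between lobes. It ran from 9.21 to 9.24 in HFD DLP, 9.07 to 9.16 in control DLP, 8.90 to 9.56 in HFD VP and 8.75 to 9.43 in control VP. Nerve markers summed to 15.8 to 25.4 in HFD DLP, 13.2 to 147.5 in control DLP, 4.00 to 7.96 in HFD VP and 4.73 to 8.24 in control VP, where Nefl, Nefm, Stmn2 and Tubb3 were never above the array median. Basal markers summed to 31.8 to 34.4, 27.1 to 37.7, 16.05 to 25.6 and 16.9 to 29.2 in the same order of groups, smooth muscle markers to 2587 to 2801, 2219 to 2514, 1846 to 2582 and 1811 to 2308, and macrophage markers to 33.3 to 41.8, 29.4 to 59.0, 39.1 to 129.1 and 35.0 to 91.4. Adipocyte markers summed to 18.8 to 23.2, 13.3 to 28.5, 23.9 to 33.6 and 31.2 to 46.1, skeletal muscle markers to 74.8 to 104.0, 67.3 to 89.5, 68.1 to 110.6 and 58.5 to 81.5, and lymphocyte markers to 5.07 to 5.97, 5.05 to 7.12, 4.83 to 8.02 and 3.03 to 7.30. Cidec, Lep, Myh4, Cd3e and Cd79a were never above the array median, Adipoq was so in control VP only, and Ckm in DLP only. The 3′ minus 5′ signal of Gapdh, a measure of RNA integrity, was lower in DLP than in VP, with DLP minus VP at -0.16 in HFD mice (exact two-sided permutation p = 0.032) and -0.25 in control mice (exact p = 0.0079, the smallest possible). The part of these differences in the lobe results that follow was not tested.

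**Figure D1:**
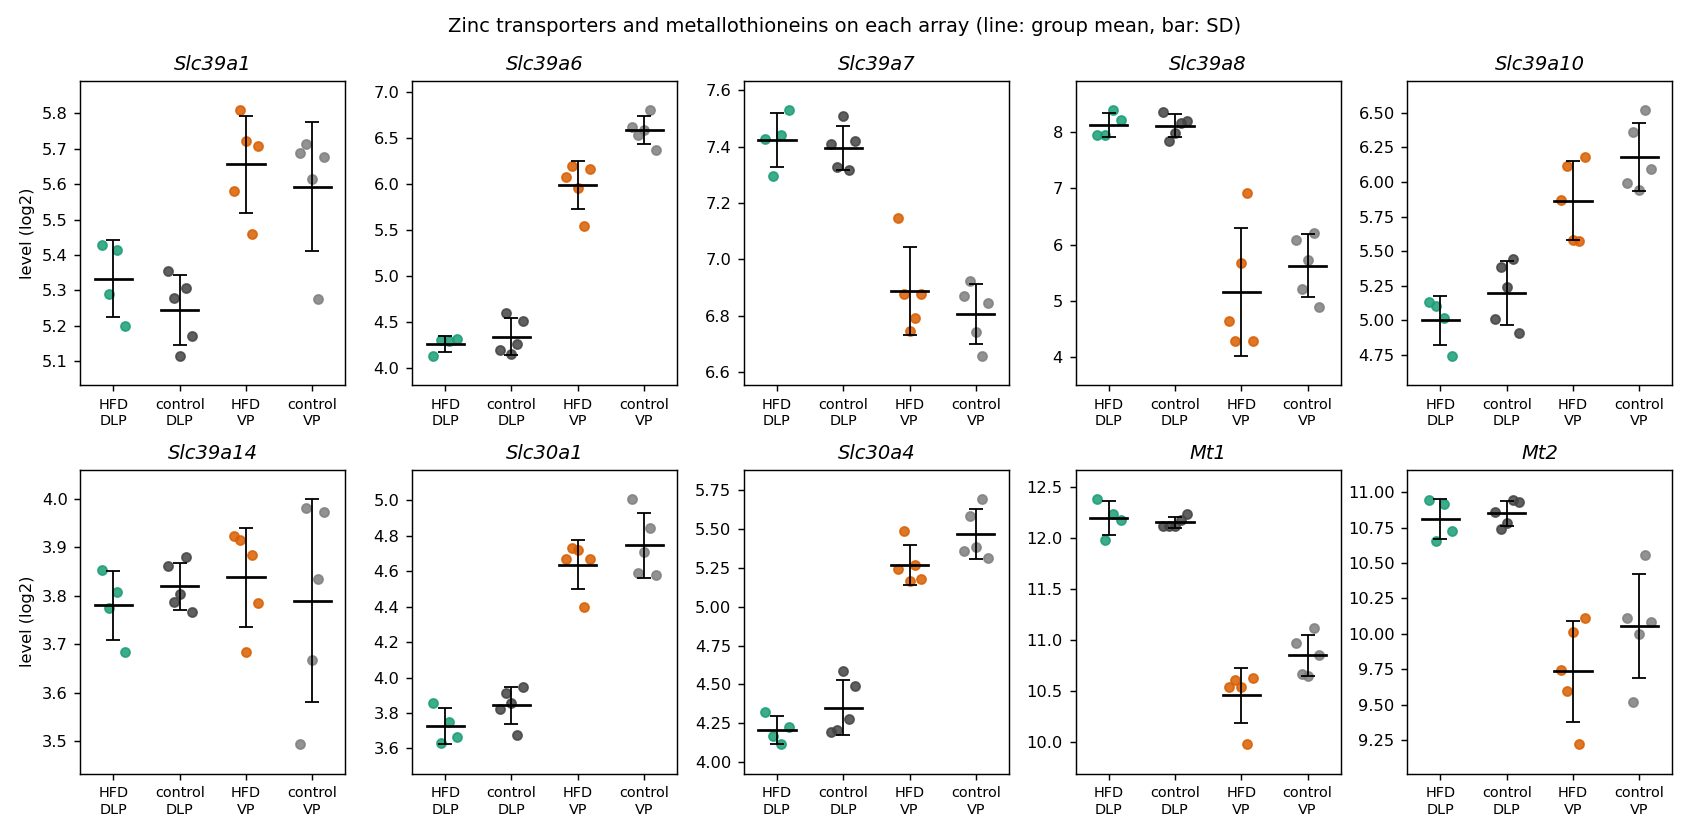
Log2 level (vertical axis, log2(value + 1)) of the 10 genes on each of the 19 arrays, in HFD DLP, control DLP, HFD VP and control VP from left to right. Points are arrays, lines are group means and bars are SD. The lobes separate completely for all genes drawn except Slc39a1 and Slc39a14. Of all genes, 44.4% had separate lobe ranges in HFD mice and 39.3% in control mice. The diets separate in VP for Slc39a6 and Mt1, with HFD below control, as for 1.19% of all genes. The VP diet values are a description, and a second Mt1 probe set overlapped between the diets.

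The comparison of DLP with VP asked how zinc handling genes differ between lobes, within each diet. Levels of most of these genes differed between the lobes, in both directions. Among the 9 genes other than Slc39a6, which is described without a test because VP arrays served to name it, limma called 4 higher in DLP (Slc39a7, Slc39a8, Mt1 and Mt2), 4 lower (Slc39a1, Slc39a10, Slc30a1 and Slc30a4) and did not call Slc39a14. The counts were the same in HFD mice and in control mice, at a Benjamini-Hochberg adjusted p under 0.05 over all genes. Lobe differences were common in the whole table: 52.9% of all genes were called in HFD mice (26.8% higher and 26.1% lower) and 55% in control mice (28.2% higher and 26.8% lower), so a call as such does not single these genes out. The median size of the difference, sign aside, was 0.91 in HFD mice and 0.90 in control mice for the 9 genes, beside 0.30 in both diets for all genes tested. All 10 genes passed the filter, and the set was chosen with results of these arrays known.

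Among the importers, Slc39a8 differed most between lobes. Slc39a8 encodes ZIP8, which carries zinc, manganese, iron and cadmium across the plasma membrane. Its levels in HFD mice (probe set 1416832_at) were 7.94, 7.95, 8.38 and 8.20 in DLP, against 4.64, 4.29, 5.67, 6.91 and 4.29 in VP. In control mice its levels were 8.36, 7.84, 7.97, 8.16 and 8.20 in DLP, against 6.08, 5.22, 5.73, 6.20 and 4.89 in VP. Every DLP array was above every VP array, and the DLP arrays were spread less widely than the VP arrays, with SDs of 0.21 in HFD DLP and 0.20 in control DLP and of 1.13 in HFD VP and 0.56 in control VP. DLP minus VP was 2.96 (95% interval 2.14 to 3.78) in HFD mice and 2.48 (1.71 to 3.25) in control mice, with adjusted p of 2.9e-06 and 1.2e-05 in limma. Its other probe set, 1448482_at, gave 1.58 in HFD mice and 1.61 in control mice, smaller by over 1.5 times but called in both (adjusted p = 0.00012 and 5.0e-05 in limma).

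Slc39a7, which encodes ZIP7, a transporter that releases zinc from the endoplasmic reticulum and Golgi, was also higher in DLP. Its probe set 1416949_s_at ran from 7.29 to 7.53 in HFD DLP, against 6.75 to 7.15 in HFD VP, and from 7.32 to 7.51 in control DLP, against 6.66 to 6.92 in control VP. No DLP array fell within the VP range. The difference was 0.54 in HFD mice (adjusted p = 1.1e-05) and 0.59 in control mice (adjusted p = 1.5e-06 in limma), or about 1.45-fold and 1.51-fold on this scale.

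Slc39a6 was lower in DLP by more than any other importer of the set. It encodes ZIP6, a plasma membrane importer known as an estrogen-regulated gene in human breast cancer cells (LIV-1), which forms a complex with ZIP10. Its levels (probe set 1424674_at) were 4.13, 4.30, 4.29 and 4.32 in HFD DLP, against 6.08, 6.19, 5.96, 5.55 and 6.16 in HFD VP. In control mice they were 4.19, 4.60, 4.15, 4.26 and 4.505 in DLP, against 6.62, 6.54, 6.59, 6.80 and 6.37 in VP. The 4 groups fell in the order control VP, HFD VP, control DLP and HFD DLP, and only the 2 DLP groups overlapped. DLP minus VP was -1.73 in HFD mice and -2.24 in control mice. Its probe set 1424675_at, also above the array median on all 19 arrays, gave -0.92 in HFD mice and -1.23 in control mice. Of its dimmer probe sets, 1441949_x_at, above the median on 6 arrays, gave -0.38 in HFD mice and -1.11 in control mice, and 1447893_x_at, above it on none, gave -0.31 and -0.21, so the size of the difference depends on the probe set.

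Slc39a10, which encodes the close relative ZIP10, also a plasma membrane importer, went the same way between lobes. Its levels (probe set 1433751_at) were 4.75 to 5.13 in HFD DLP, against 5.58 to 6.18 in HFD VP, and 4.91 to 5.45 in control DLP, against 5.94 to 6.52 in control VP. The lobes did not overlap. The difference was -0.87 in HFD mice (adjusted p = 6.4e-05) and -0.98 in control mice (adjusted p = 6.8e-06 in limma), and the second probe set, 1439041_at, gave -1.05 and -1.07.

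The 2 remaining importers differed little. Slc39a1 encodes ZIP1, the importer that has been studied most in prostate epithelium, and was lower in DLP by a small amount. Its levels (probe set 1424424_at) were 5.43, 5.29, 5.41 and 5.20 in HFD DLP, against 5.58, 5.81, 5.72, 5.46 and 5.71 in HFD VP. In control mice they were 5.35, 5.28, 5.12, 5.31 and 5.17 in DLP, against 5.69, 5.71, 5.61, 5.28 and 5.68 in VP. The HFD arrays of the lobes did not overlap, and in control mice the single VP array at 5.28 lay within the DLP range. The difference was -0.32 in HFD mice (adjusted p = 0.0059) and -0.35 in control mice (adjusted p = 0.0020 in limma).

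Slc39a14, which encodes ZIP14, a zinc and iron importer induced in liver in the acute-phase response, was called in neither lobe comparison. Its probe set 1427035_at ran from 3.68 to 3.85 in HFD DLP, 3.77 to 3.88 in control DLP, 3.68 to 3.92 in HFD VP and 3.49 to 3.98 in control VP. All groups overlapped. DLP minus VP was -0.06 (95% interval -0.25 to 0.13) in HFD mice and 0.03 (-0.15 to 0.21) in control mice, with adjusted p of 0.62 and 0.79 in limma, so differences beyond these bounds were not seen with this probe set. Of its 3 other probe sets, none was above the array median on more than 9 arrays.

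Both exporters were lower in DLP. Slc30a1 encodes ZnT1, the exporter of the plasma membrane. Its levels (probe set 1436164_at) were 3.86, 3.63, 3.75 and 3.66 in HFD DLP, against 4.67, 4.73, 4.72, 4.40 and 4.67 in HFD VP. In control mice they were 3.82, 3.91, 3.85, 3.68 and 3.95 in DLP, against 5.01, 4.59, 4.71, 4.84 and 4.58 in VP. No DLP array reached the lowest VP array. The difference was -0.91 in HFD mice (adjusted p = 9.2e-08) and -0.90 in control mice (adjusted p = 4.3e-08 in limma), or 1.88-fold and 1.87-fold lower. Its dimmer probe set, 1422786_at, which was above the array median on 7 arrays, all of them VP, gave -0.58 and -0.63.

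Slc30a4 encodes ZnT4, which loads zinc into vesicles and is needed for the zinc content of mouse milk. Its levels (probe set 1418843_at) were 4.32, 4.16, 4.11 and 4.23 in HFD DLP, against 5.25, 5.49, 5.17, 5.27 and 5.18 in HFD VP. In control mice they were 4.19, 4.21, 4.59, 4.27 and 4.49 in DLP, against 5.36, 5.59, 5.39, 5.69 and 5.31 in VP. The lobes were again separate. DLP minus VP was -1.06 (95% interval -1.27 to -0.86) in HFD mice and -1.12 (-1.31 to -0.93) in control mice, with adjusted p of 1.9e-08 and 3.8e-09 in limma.

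Metallothioneins were higher in DLP, opposite to both exporters. Mt1 levels (probe set 1422557_s_at) were 12.39, 11.98, 12.24 and 12.18 in HFD DLP, against 10.54, 10.61, 10.54, 9.97 and 10.62 in HFD VP. In control mice they were 12.12, 12.12, 12.12, 12.18 and 12.24 in DLP, against 10.97, 10.67, 10.64, 11.12 and 10.85 in VP. All 9 DLP arrays were above all 10 VP arrays. The difference was 1.74 (95% interval 1.48 to 2.00) in HFD mice and 1.31 (1.06 to 1.55) in control mice, with adjusted p of 4.3e-10 and 1.1e-08 in limma, or 3.34-fold and 2.47-fold on this scale. On DLP arrays this probe set stood between the 6th and the 13th of 45101 from the top, so that a rise there could show by few ranks only. A second Mt1 probe set in the middle of the range, 1451612_at, gave larger differences of 2.60 and 2.17 (adjusted p = 1.3e-08 and 6.9e-08 in limma).

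Mt2 levels (probe set 1428942_at) were 10.94, 10.66, 10.92 and 10.73 in HFD DLP, against 9.74, 9.59, 10.01, 9.22 and 10.11 in HFD VP. In control mice they were 10.86, 10.74, 10.79, 10.94 and 10.93 in DLP, against 10.11, 9.52, 9.998, 10.56 and 10.08 in VP. The lobes did not overlap here either. The difference was 1.07 in HFD mice (adjusted p = 2.3e-05) and 0.80 in control mice (adjusted p = 0.00028 in limma), or 2.10-fold and 1.74-fold. The SD of Mt2 was 0.14 in HFD DLP and 0.09 in control DLP, and 0.36 in HFD VP and 0.37 in control VP.

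Counted by overlap, 8 of the 9 tested genes had separate lobe ranges in HFD mice, against 44.4% of all genes, and 7 of 9 in control mice, against 39.3% of all genes.

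**Figure D2:**
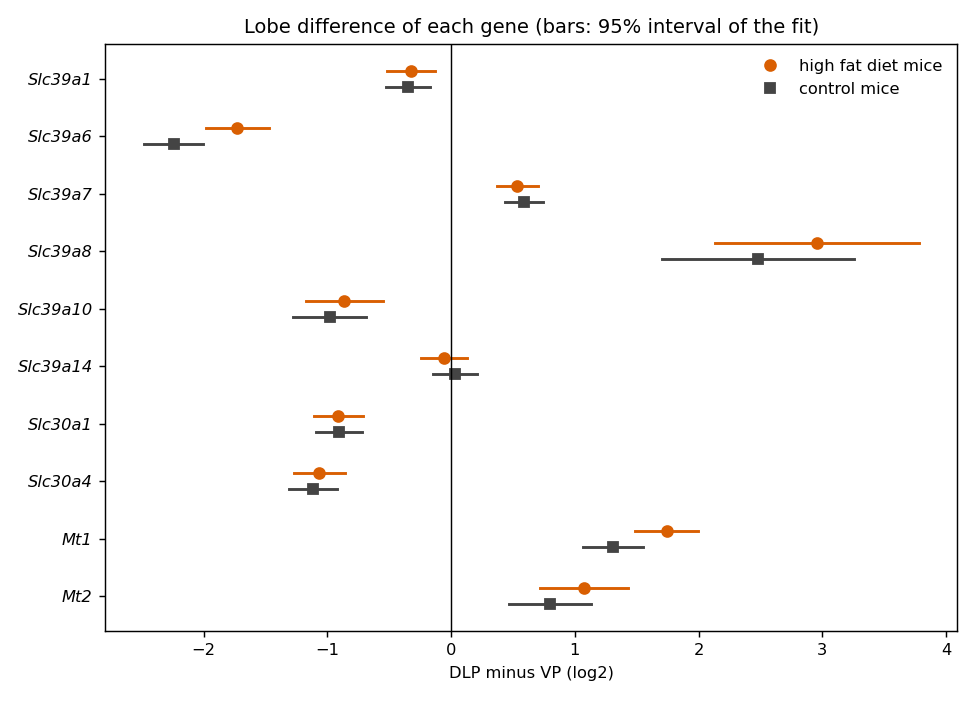
DLP minus VP (horizontal axis, log2) of each gene in HFD mice (circles) and control mice (squares), with the 95% interval of the fit. Slc39a7, Slc39a8, Mt1 and Mt2 lie right of 0, Slc39a14 lies on 0 and the other 5 genes lie left of it in both diets. The differences of Slc39a6 are shown as a description.

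Other zinc handling genes were read from a list of 22 further transporters, metallothioneins and zinc sensors, of which 17 passed the filter. In HFD mice 7 of the 17 were called higher in DLP and 1 lower. In control mice 6 were called higher and 2 lower. In both diets 8 of 17 were called, beside 52.9% of all genes in HFD mice and 55% in control mice, so calls were no more frequent in the list than in the whole table. The median difference of the 17 was 0.25 in HFD mice and 0.12 in control mice, beside 0.00 for all genes in both diets.

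Slc30a2, which encodes ZnT2, a vesicular exporter known from lactating mammary gland, prostate and pancreas, had the widest difference of the list, at 3.42 in HFD mice and 3.47 in control mice (adjusted p = 1.2e-10 and 3.6e-11 in limma). It averaged 5.12 ± 0.20 in HFD DLP (SD, n = 4), against 1.70 ± 0.36 in HFD VP (SD, n = 5), and 5.45 ± 0.17 in control DLP, against 1.98 ± 0.57 in control VP (SD, n = 5 each). In VP it was above the array median on 3 of 5 arrays of each diet, so the size of its difference is uncertain. It ran opposite to the exporters Slc30a1 and Slc30a4. Mt3, a metallothionein best known from brain, was higher by 1.76 in HFD DLP and by 1.89 in control DLP, but was above the array median on no VP array. Slc39a4, the intestinal importer ZIP4, was higher by 0.74 in HFD mice and by 1.42 in control mice. Slc39a3, the importer ZIP3, was higher by 0.46 in both diets, and Slc11a2, the metal transporter DMT1, by 0.42 in HFD mice and 0.56 in control mice.

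The remaining calls of the list were smaller or held in 1 diet. Slc39a11, the importer ZIP11, was lower in DLP, with DLP minus VP at -0.42 in HFD mice and -0.68 in control mice. Slc30a6, the Golgi exporter ZnT6, was called lower in control mice, at -0.28. Gpr39, a zinc-sensing receptor, was called higher in control mice, at 0.61, where it was above the array median on 3 of 5 DLP arrays and on no VP array. Mtf1 and the Golgi importer Slc39a9 were called higher in HFD mice, at 0.29 and 0.25, and were not called in control mice, at 0.12 and 0.11. Whether the lobe difference of any of these differed between diets was not tested.

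**Figure D3:**
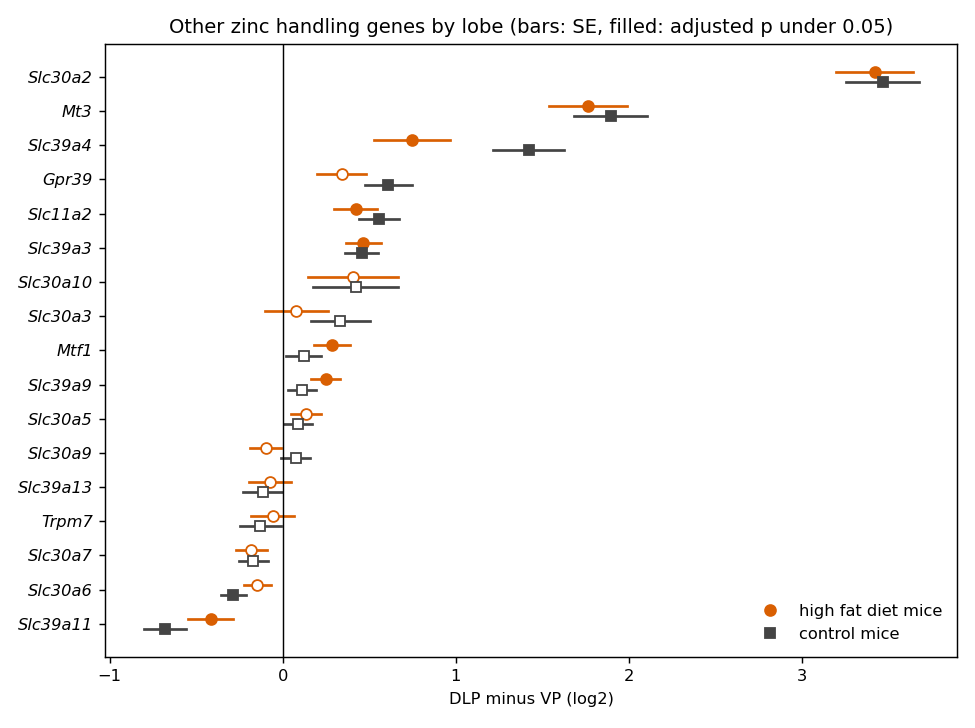
DLP minus VP (horizontal axis, log2) of the 17 other zinc handling genes in HFD mice (circles) and control mice (squares), with the SE of the fit. Filled symbols passed an adjusted p of 0.05, and Slc30a2 lies farthest right, at 3.42 in HFD mice and 3.47 in control mice.

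Genes induced by glucocorticoids and acute-phase genes were read beside the metallothioneins, since both signals induce Mt1 and Mt2. Of 11 glucocorticoid-induced genes, all tested, 3 were called higher in DLP and 3 lower in each diet. Of all genes, 26.8% were called higher and 26.1% lower in HFD mice, and 28.2% and 26.8% in control mice. Calls in this list were thus about as frequent as in the whole table. The higher ones were Per1, Sgk1 and Klf9, at 0.57, 1.31 and 0.59 in HFD mice and 0.71, 1.28 and 0.29 in control mice. The lower ones were Fkbp5, Tsc22d3 and Zbtb16, at -1.32, -1.48 and -0.53 in HFD mice and -1.27, -1.18 and -0.36 in control mice. Fkbp5, a chaperone of steroid receptors, is also an androgen-induced gene in prostate. Of 13 acute-phase genes 6 passed the filter, and in each diet 1 was called lower in DLP: Lbp, the lipopolysaccharide binding protein, at -0.69 in HFD mice (adjusted p = 0.0499 in limma), and Socs3, a feedback inhibitor of cytokine signals, at -0.94 in control mice.

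The diet comparison within DLP asked whether the high fat diet changed these genes there, and no gene of the set passed the test. Differences of HFD minus control ran from -0.20 for Slc39a10 to 0.09 for Slc39a1, with adjusted p from 0.98 to 1.00 in limma and no unadjusted p under 0.05. The ranges of the 2 diets overlapped for all 10 genes, while 3.15% of all genes had separate ranges. None of the 11728 genes passed (0%), 662 had an unadjusted p under 0.05, and the median difference was -0.04 for the 10 genes and 0.01 for all genes.

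The intervals bound what could have been missed with these probe sets, apart from a rise of Mt1. For Slc39a6 the difference was -0.08 (95% interval -0.33 to 0.17), with levels of 4.26 ± 0.08 in HFD DLP (SD, n = 4) and 4.34 ± 0.20 in control DLP (SD, n = 5). For Mt1 it was 0.04 (-0.22 to 0.30), for Mt2 -0.04 (-0.39 to 0.31), for Slc39a1 0.09 (-0.10 to 0.28) and for Slc39a7 0.03 (-0.14 to 0.19). The Mt1 probe set stood between the 6th and the 13th of 45101 on DLP arrays, which leaves few ranks for a rise. The second Mt1 probe set, 1451612_at, gave -0.16. The exporters Slc30a1 and Slc30a4 differed by -0.12 (-0.31 to 0.08) and -0.14 (-0.35 to 0.06), and Slc39a10 by -0.20 (-0.51 to 0.11). The interval of Slc39a14 ran from -0.23 to 0.15, and the widest, for Slc39a8, from -0.81 to 0.83. Each interval rests on a spread shared by DLP and VP arrays, so the VP spread enters these DLP bounds. For Slc39a8 the SD was 0.21 in HFD DLP and 0.20 in control DLP, against 1.13 in HFD VP and 0.56 in control VP. For Mt2 it was 0.14 and 0.09, against 0.36 and 0.37 in the same order. In simulated arrays of this design, 67 genes were changed by 0.5, 67 by 1 and 66 by 2, with independent noise. Of those changed by 0.5, 61.2% were recovered in this comparison, and of those changed by 1, 94.0%. Recovery depends on how many genes change, and none was called on the measured arrays, so these shares may be too high for a single changed gene.

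The other lists gave no call in DLP either. Of the 17 other zinc handling genes none passed, and the 2 with the largest differences were Slc30a2 at -0.33 and Slc30a10, a manganese exporter of the same family, at -0.27. Across the whole table, 5434 of 11728 genes had a negative difference. Of the 11 glucocorticoid-induced genes 10 were negative, with a median of -0.21, and the largest were Dusp1 at -0.48 and Errfi1 at -0.40. All 6 acute-phase genes were negative, the largest being Saa1 at -1.31 and Saa3 at -1.02, and of these Saa1 was above the array median on no HFD array and 1 control array and Saa3 on 1 array of each diet. No cell type marker was called. All 5 smooth muscle markers were higher on average in HFD DLP, with a median of 0.26, and all 5 nerve markers lower, with a median of -1.03. Summed nerve markers overlapped between the diets, at 15.8 to 25.4 in HFD DLP and a wide 13.2 to 147.5 in control DLP. Summed smooth muscle markers did not, at 2587 to 2801 in HFD DLP and 2219 to 2514 in control DLP. The part of these in the DLP diet values was not tested.

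The diet comparison within VP is the one in which Slc39a6 was picked, so its values are given as a description with no test. Slc39a6 averaged 5.99 ± 0.26 in HFD VP and 6.58 ± 0.15 in control VP (SD, n = 5 each), a difference of -0.60 (SE 0.11), or 1.51-fold lower on this scale. The highest HFD array, at 6.19, lay below the lowest control array, at 6.37. Mt1 averaged 10.46 ± 0.27 in HFD VP and 10.85 ± 0.20 in control VP, a difference of -0.40, and its highest HFD array at 10.62 lay just below its lowest control array at 10.64. The 8 other genes overlapped between the diets. Complete separation with HFD below control was seen for 2 of 10 genes and for 1.19% of all genes, and 0.58% of all genes were called lower. The rule for the set used this comparison, so nothing is read from these shares.

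In 7 of the 10 genes the VP mean was lower in HFD than in control mice, beside 5610 of all 11728 genes. Mt2 differed by -0.32 (9.74 ± 0.36 in HFD VP and 10.05 ± 0.37 in control VP), Slc39a10 by -0.31 (5.87 ± 0.29 and 6.18 ± 0.25 in the same groups) and Slc39a8 by -0.47 (5.16 ± 1.13 and 5.63 ± 0.56). The second probe sets of Slc39a8 (1448482_at) and Slc39a10 (1439041_at), both above the array median on all 19 arrays, gave smaller differences of -0.07 and -0.15. The exporters differed by -0.20 for Slc30a4 and -0.11 for Slc30a1. Slc39a1, Slc39a7 and Slc39a14 were marginally higher in HFD VP, by 0.06, 0.08 and 0.05. The sign turned for Slc39a1 without control VP 4, at -0.02, and for Slc39a14 without control VP 1, at -0.03. Across all genes the median difference was 0.01.

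The other probe sets of Slc39a6 were dimmer and did not all show the same size or the separation of the diets. The 2 that passed the filter gave 3.03 ± 0.28 in HFD VP and 3.32 ± 0.15 in control VP for 1424675_at, and 1.61 ± 0.22 in HFD VP and 2.19 ± 0.12 in control VP for 1441949_x_at. On the second of these 1 of 5 HFD arrays and 5 of 5 control arrays were above the array median. A further probe set, 1447893_x_at, was above the median on no array and gave 1.33 in HFD VP and 1.35 in control VP. The second Mt1 probe set gave 2.84 ± 0.35 in HFD VP and 3.43 ± 0.46 in control VP. Its diets overlapped, with 2.28 to 3.19 in HFD VP and 3.06 to 4.19 in control VP.

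**Figure D4:**
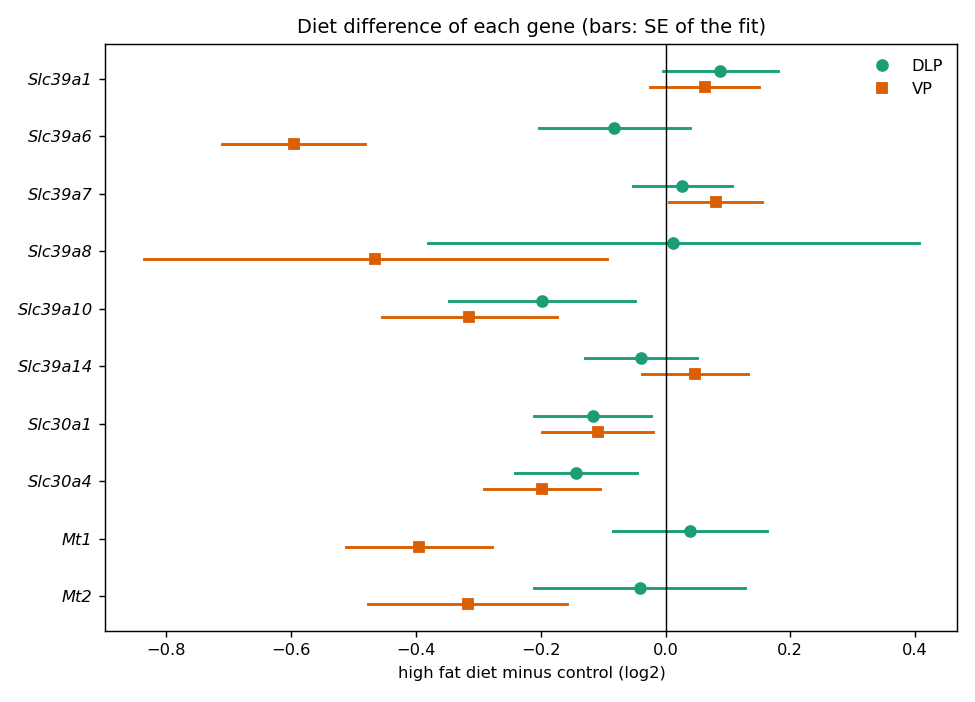
HFD minus control (horizontal axis, log2) of each gene in DLP (green circles) and VP (orange squares), with the SE of the fit. All DLP values lie between -0.20 and 0.09, and in VP Slc39a6, at -0.60, lies farthest left; the VP values are a description.

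The diet difference of DLP minus that of VP, equally a description, was 0.51 for Slc39a6 (SE 0.17) and 0.43 for Mt1 (SE 0.17), and 0.28 for Mt2 (SE 0.23) and 0.48 for Slc39a8 (SE 0.54). It lay between -0.09 and 0.12 for the other 6 genes. The same quantity is seen in the lobe differences of Mt1, which were 1.74 in HFD mice and 1.31 in control mice.

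Single VP arrays weighed on these values. HFD VP 4 was the lowest of its group in 6 of the 10 genes (Slc39a1, Slc39a6, Slc39a10, Slc30a1, Mt1 and Mt2) and the highest in Slc39a8. Control VP 4 was the highest of its group in 6 genes (Slc39a6, Slc39a8, Slc39a10, Slc30a4, Mt1 and Mt2) and the lowest in Slc39a1 and Slc39a7. Without HFD VP 4 the VP diet difference was -0.49 for Slc39a6, -0.27 for Mt1, -0.19 for Mt2 and -0.90 for Slc39a8. Without control VP 4 it was -0.54 for Slc39a6, -0.33 for Mt1, -0.19 for Mt2 and -0.32 for Slc39a8.

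On HFD VP 4 the DLP gene Tgm4 was at 1.91, within the range of the other VP arrays, while Mmp7, a protease higher in DLP, was at 7.68, against 2.59 to 5.85 on the other VP arrays. Seminal vesicle markers, 3 of 4 above the array median on some HFD VP array, summed to 1.04 to 98.5 in HFD VP, against 1.59 to 4.21 in control VP, where none was above the median. All 5 smooth muscle markers were higher on average in HFD VP, as they were in HFD DLP, and none was called for diet in either lobe. The 3′ minus 5′ signal of Gapdh averaged -0.27 in HFD VP and -0.16 in control VP. The difference was -0.11 (exact two-sided permutation p = 0.10), against -0.01 between the diets in DLP (exact p = 0.83). The part of these in the VP values was not tested.

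**Figure D5:**
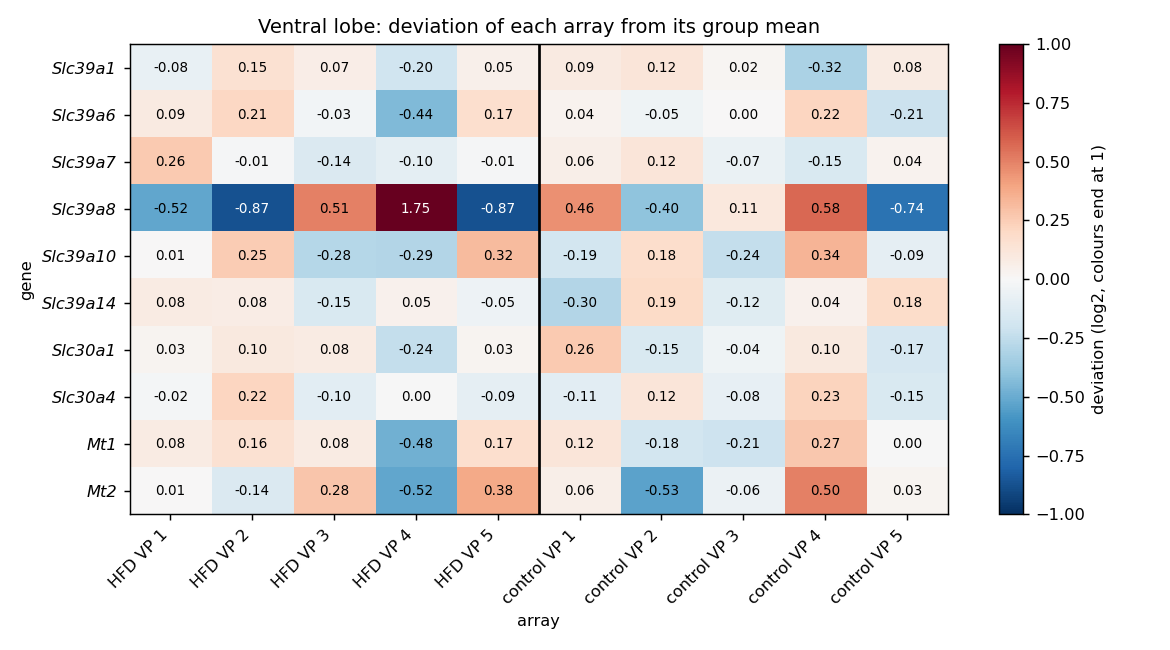
Deviation of each VP array from its own group mean (log2, colour and number) for the 10 genes, HFD arrays left of the line and control arrays right. HFD VP 4 is low in Slc39a6, Mt1 and Mt2 and high in Slc39a8, and Slc39a8 varies most.

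Over the 19 arrays, the genes whose profile was nearest to that of Slc39a6, by the root mean square difference of levels centred on each gene's mean, were Gdpd1 (0.21), a glycerophosphodiester phosphodiesterase, Ncaph (0.24), a condensin subunit, and Qser1 (0.24). Gdpd1 averaged 5.69 in HFD DLP and 5.73 in control DLP, and 7.75 in HFD VP and 8.06 in control VP. Among the other 9 genes of the set the nearest to Slc39a6 was Slc30a4, in place 260 of the 11727 other genes at 0.51, and Slc39a10 and Slc30a1 were in places 405 and 406 at 0.58. For Mt1 the nearest were Tanc2 (0.18), a scaffold protein, Erp44 (0.20), a chaperone of the early secretory pathway, and Pgm3 (0.20), an enzyme of amino sugar synthesis. Erp44 averaged 8.84 in HFD DLP and 8.82 in control DLP, and 7.15 in HFD VP and 7.35 in control VP. Mt2 was in place 170 for Mt1, at 0.33.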

How the data were processed

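RNA of whole prostate lobes was biotin-labelled and hybridised to Affymetrix arrays. The authors deposited 1 value per probe set on a log10-like scale for 19 arrays, made with MAS5 per the submitters' processing notes. The deposited values ran from 0 to 3.99 with a median of 0.56, and their sorted values were identical on all arrays, as after quantile normalization. Base and offset are not stated in the sources used here. Base 10 and an offset of 1 were taken, and the deposited log10 values were turned to log2. Another base would scale every difference by 1 factor.

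Of 45101 probe sets, 34945 have 1 gene symbol in the platform annotation, 932 several and 9160 none. A probe set had to be above the array median on at least 4 arrays, and the one with the highest mean stood for a gene (11728 genes). Group means were fitted to all 19 arrays with limma 3.58.1 in R 4.3.3 (lmFit and eBayes with a mean-dependent prior), with Benjamini-Hochberg adjustment over all genes. The code was tested on simulated data. Permutation tests were exact and two-sided. Nothing says that replicates came from separate mice beyond the 5 mice per diet, and the number of arrays limits the precision.

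The members and lists were chosen with earlier results of these data known. Named are all members, list genes past the threshold (or the 2 with the largest difference), the 3 genes nearest to Slc39a6 and to Mt1, and markers where a result turns on them.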

Additional observations from a re-analysis of the deposited data

Results flagged for a closer look

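In 4 of 40 groups of a gene's values, 1 array lay far from the others, by the gap to its nearest neighbour relative to the range of the group. About 1 group in 20 is expected to do so by chance. Mt1 on HFD VP 4 was 9.97, against 10.54 to 10.62 on the other HFD VP arrays. Slc30a1 on the same array was 4.40, against 4.67 to 4.73. Slc39a1 on control VP 4 was 5.28, against 5.61 to 5.71 on the other control VP arrays. Slc39a6 on HFD DLP 1 was 4.13, against 4.29 to 4.32 on the other HFD DLP arrays.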

How the results depend on the processing

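The calls of the set held throughout: of the 9 genes other than Slc39a6, 4 were called higher and 4 lower in DLP in both diets, and none of the 10 was called for diet in DLP, under all 31 alternatives run on the whole table. These were an offset of 16, no filter, a filter at the 75th percentile, the mean of a gene's probe sets, no mean-dependent prior, array weights, 1 weight per lobe, the compared groups alone, both forms of the replicate block, cyclic loess, leaving out control VP 4 and HFD VP 3 together, and leaving out each array.

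Signs turned only in differences that were not called; the cause was not tested. In the DLP diet difference the mean of probe sets gave 0.0302 for Slc39a6, -0.0423 for Slc39a8, 0.0277 for Slc39a14 and -0.0623 for Mt1. Other probe sets gave 0.0243 (1424675_at) and 0.15 (1441949_x_at) for Slc39a6, -0.10 for Slc39a8, 0.13 (1425649_at) and 0.0948 (1457770_at) for Slc39a14 and -0.16 for Mt1. Leaving out 1 array gave -0.0081 to 0.0698 for Slc39a7, -0.0744 to 0.0761 for Slc39a8, -0.0233 to 0.11 for Mt1 and -0.0858 to 0.0098 for Mt2. In the lobe difference of Slc39a14, other probe sets gave 0.21 (1457770_at) in HFD mice and -0.21 (1425649_at) and -0.26 (1438490_at) in control mice, the mean of probe sets gave 0.0764 in HFD mice, and leaving out 1 array gave -0.0447 to 0.0772 in control mice. In the VP diet difference, given without a test, leaving out 1 array gave -0.0170 to 0.11 for Slc39a1 and -0.0262 to 0.0957 for Slc39a14.

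The count of all genes called for diet in DLP, 0, became 4 with an offset of 16, 1 with no filter, 5 with array weights and 6 with 1 weight per lobe, and 0 to 2 without 1 array. In VP the count of 130 became 78 with no filter, 209 with the filter at the 75th percentile, 47 with the mean of probe sets, 83 without the mean-dependent prior, 47 with array weights, 20 with 1 weight per lobe and 0 with the compared groups alone, and ran from 70 to 148 without 1 array.

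Replicate numbers are not said to mark a mouse, and same-numbered arrays did not all deviate together: correlations over 9 pairs across lobes ran from -0.07 to 0.19 and over 9 pairs across diets from -0.15 to 0.46, with 4 over 0.1 in each. The highest were those of VP arrays 2 (0.46) and 3 (0.38) across diets. With the number as a fixed replicate block the genes called were 0 for diet in DLP, 93 for diet in VP, 6154 for lobe in HFD mice and 6443 in control mice, and the DLP diet difference of Slc39a8 was -0.11. With diet and number as 1 mouse they were 0, 129, 6300 and 6549.

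Ranks near the top of an array limit Mt1 in DLP, and dim VP signals limit Slc30a2, Mt3 and Gpr39.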
